A study of Mus musculus with 6 samples.

Results

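The miR-34 family was measured by small RNA sequencing in left ventricles of old mice, with 3 HCM mutant and 3 wild-type (WT) libraries. HCM is read as hypertrophic cardiomyopathy, an inherited thickening of the heart wall. The HCM mutant mice have the genotype aMHC403/+, written for a single allele of Myh6 carrying R403Q, a change in the alpha-myosin motor made by cardiac muscle cells. Both groups were more than 50 weeks old, no other allele or agent is named for either, and the sex and strain of the mice are not stated. The family members are the rows of the deposited table whose name, without the arm suffix or star, is miR-34a, miR-34b or miR-34c. These were 5 of the 698 rows: miR-34a, miR-34b-5p, miR-34b-3p, miR-34c and miR-34c*, in which a star marks the minor arm of a precursor.

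A microRNA (miRNA) is a short RNA cut from one arm of a hairpin precursor. It pairs with messenger RNAs mainly through its seed, bases 2 to 8, and lowers their output. The miR-34 genes are activated by the tumour suppressor p53, and their products repress genes of the cell cycle and of cell survival. miR-34a is expressed in many tissues and has been studied in the ageing and injured mouse heart, whereas miR-34b and miR-34c, made from a shared primary transcript, are best known from multiciliated epithelium and testis. The miR-449 miRNAs carry the same seed and are also products of multiciliated cells.

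The 5p arms are shown first because the seed in capitals is what joins the family. The sequences are those of the deposited table, written 5′ to 3′ with T for U.
miR-34a: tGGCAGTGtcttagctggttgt
miR-34b-5p: aGGCAGTGtaattagctgattgt
miR-34c: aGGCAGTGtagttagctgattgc
miR-449a: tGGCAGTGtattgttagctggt
Of all 698 rows, 6 carry this seed, namely these 4 and miR-449b and miR-449c. miR-34b-5p and miR-34c, both of 23 bases, differ at 2 positions counted from the 5′ end, A11G and T23C, where the miR-34b-5p base comes first. miR-34a, of 22 bases, aligned to miR-34b-5p with 19 identical bases, 3 mismatches and 1 gap. A read of miR-34b-5p or miR-34c that ends before base 23 is told apart by base 11 alone. An error at base 11 could then count it for the wrong one. How such reads were assigned is not stated, so the split between these paralogues is uncertain.

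miR-34a lies at chr4:150068473-150068494 on the plus strand (GRCm38.p6), and in GENCODE M21 its precursor overlaps an exon of Gm37795 only beyond the mature sequence. miR-34b-5p lies at chr9:51103610-51103632 and miR-34c at chr9:51103076-51103098, both on the minus strand. Their precursors are 451 bases apart and lie within an intron of Btg4, which is annotated on the opposite strand. The RefSeq hairpins of Mir34b and Mir34c are shown with both measured arms in capitals, the 5p arm first, because these 4 products are compared below.
Mir34b: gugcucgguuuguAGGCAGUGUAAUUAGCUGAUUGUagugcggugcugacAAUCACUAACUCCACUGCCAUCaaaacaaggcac
Mir34c: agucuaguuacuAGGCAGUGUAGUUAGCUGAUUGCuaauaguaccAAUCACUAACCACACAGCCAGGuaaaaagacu
The 3p arms miR-34b-3p and miR-34c* share a seed of their own (ATCACTA), which no row outside the pair carried, and are identical at 17 of 22 bases. The 3p arm of miR-34a was not analysed here.

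The values are reads per 1000000 miRNA reads (RPM), so each is a share of the library. The HCM mutant libraries held 2483486 to 4267939 miRNA reads and the WT libraries 3647223 to 5223636. 1 read was worth 0.191 to 0.403 RPM, and a count of 0 allowed up to 0.574 to 1.21 RPM (3 reads). The heart muscle list (miR-1, miR-133a, miR-208a and miR-499, mostly miR-1 and miR-208a) made up 379393 to 445519 RPM in the HCM mutants and 413240 to 492444 RPM in WT. On the first principal component, with 56.0% of the variance, the HCM mutants lay at 1.25, 2.70 and 4.74 and WT at −5.13, 0.05 and −3.62, so WT replicate 2 lay nearest to the HCM mutants.

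The family was a minor part of the ventricle's miRNAs, and miR-34a made up most of it. miR-34a ranked 94 by mean level among all rows and miR-34b-5p ranked 183. Summed over its 5 rows the family stood at 175 ± 17.5 RPM in the HCM mutants and 154 ± 41.0 RPM in WT (SD, n = 3 each). Over the 6 libraries miR-34a ranged from 110 to 185 RPM, miR-34b-5p from 6.32 to 20.9 RPM and miR-34c from 0.548 to 2.34 RPM. These 3 ranges do not overlap. miR-34b-3p ranged from 0 to 1.64 RPM and miR-34c* from 0 to 0.481 RPM, and their ranges overlap with each other, as does that of miR-34b-3p with miR-34c. The mature miRNAs compared are 22 or 23 bases long, so RPM was not divided by length.

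**Figure D1:**
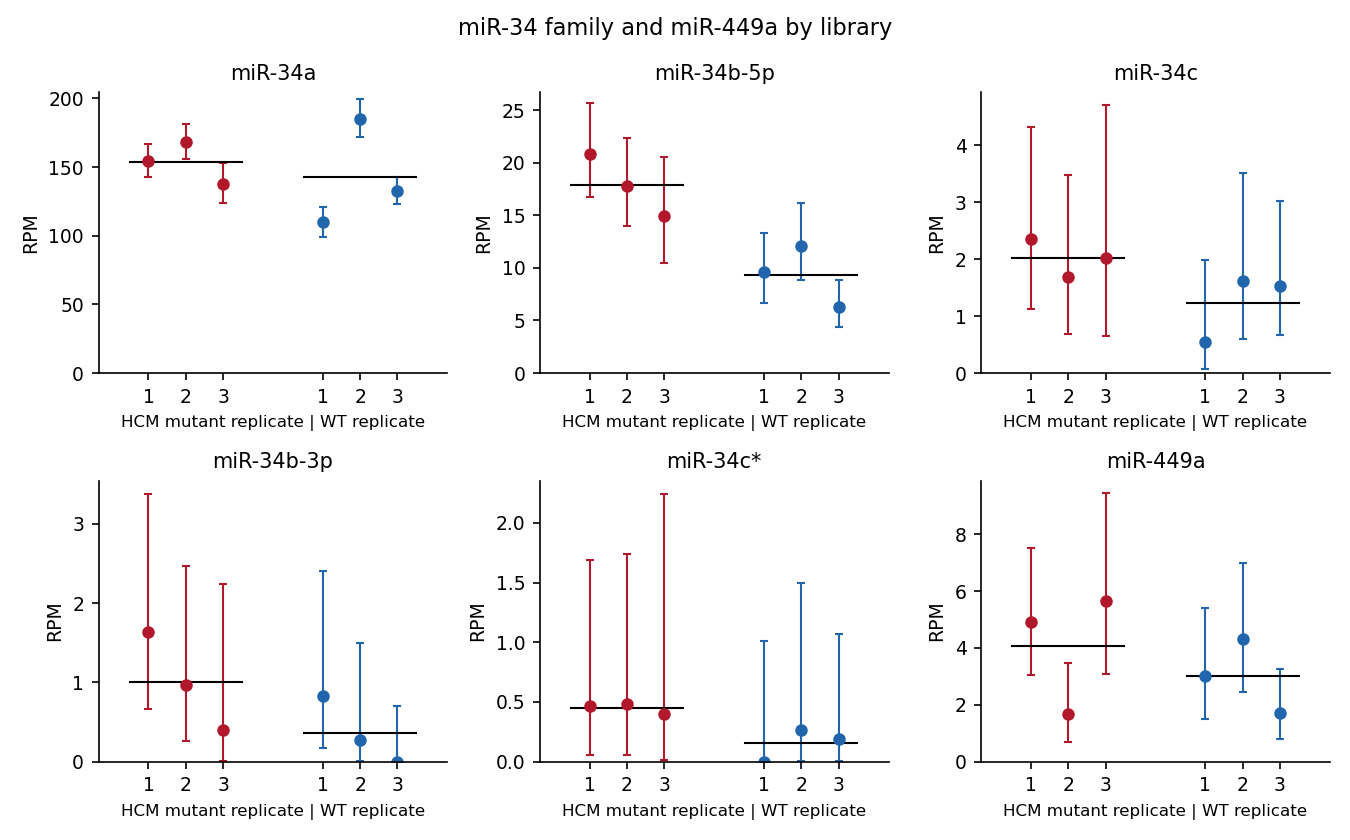
Level of each miR-34 family member and of miR-449a in RPM (y axes start at 0, a scale per panel) in the HCM mutant libraries (red) and the WT libraries (blue). Points are libraries with exact Poisson 95% intervals of their reads, and black lines are group means. The 3 HCM mutant points of miR-34b-5p (14.9 to 20.9 RPM) lie above the 3 WT points (6.32 to 12.1 RPM), whereas those of miR-34a overlap.

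miR-34a, the abundant member, did not pass the test between HCM mutant and WT ventricles. It stood at 155, 168 and 138 RPM in HCM mutant replicates 1, 2 and 3, against 110, 185 and 133 RPM in the WT replicates. The groups overlap, and WT holds both the lowest and the highest library. The log2 difference, computed as log2(RPM + 1) in HCM mutant minus WT, was 0.14 ± 0.24 (SE), with a 95% interval of −0.35 to 0.63 (limma, adjusted p = 0.807). The median of all 193 miRNAs tested was itself 0.15, so miR-34a lay at −0.017 relative to it. Counted from the highest signed difference to the lowest, miR-34a ranked 105 of 193. Its log2 difference lay between −0.051 and 0.34 over 22 other settings, 0 of which gave a call, and it was negative with median-of-ratios scaling, with DESeq2 and without WT replicate 1.

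miR-34b-5p was called higher in the HCM mutant ventricle, as a share of the library's miRNA reads and by a small margin. It stood at 20.9, 17.8 and 14.9 RPM in the HCM mutants, against 9.60, 12.1 and 6.32 RPM in WT. Every HCM mutant library was above every WT library, as was so for 35 of the 193 miRNAs tested (18.1%), while 5 of 193 (2.59%) had every HCM mutant library below every WT library. The means were 17.9 ± 2.98 RPM in the HCM mutants and 9.34 ± 2.90 RPM in WT (SD, n = 3 each), a ratio of 1.91. The log2 difference was 0.90 ± 0.28 (SE; 95% interval 0.34 to 1.46), which passed by a small margin (limma with Benjamini-Hochberg adjustment over all 193, adjusted p = 0.0499). It lay 0.74 above the median of all tested and ranked 8 of 193. Of the 2 members tested, 1 was higher and 0 were lower, where 10 of 193 miRNAs (5.18%) were higher and 0 of 193 (0%) were lower. edgeR on the recovered reads gave miR-34b-5p 0.96 (adjusted p = 0.0373), with 11 of 193 (5.7%) higher and 0 lower. At an adjusted p under 0.1 with limma it was again 1 of 2 members, where 19 of 193 (9.84%) were higher and 2 of 193 (1.04%) lower.

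The miR-34b-5p call rests on few reads, namely 89, 74 and 37 in the HCM mutants and 35, 45 and 33 in WT. The exact Poisson 95% intervals of the nearest libraries of the 2 groups overlap, at 10.5 to 20.5 RPM for HCM mutant replicate 3 and 8.82 to 16.2 RPM for WT replicate 2. These intervals cover counting error only. The spread within groups was 0.34 on the log2 scale, where counting alone would give 0.20, and the 20 tested miRNAs nearest in level had a median spread of 0.29. For miR-34a the spread was 0.29 against 0.06 from counting, with 0.29 for its 20 neighbours in level. The call held in 10 of 21 other settings, the threshold of 0.1 among them, with a log2 difference between 0.53 and 1.09 and an adjusted p between 0.0110 and 0.267. It was lost without HCM mutant replicate 1 (0.0507), HCM mutant replicate 2 (0.135), WT replicate 1 (0.0678) or WT replicate 3 (0.267; limma adjusted p-values), and under each of the 3 scalings that brought the median of all miRNAs near 0. Relative to that median the difference of miR-34b-5p was 0.75 under each of those scalings, against 0.74 as reported.

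**Figure D2:**
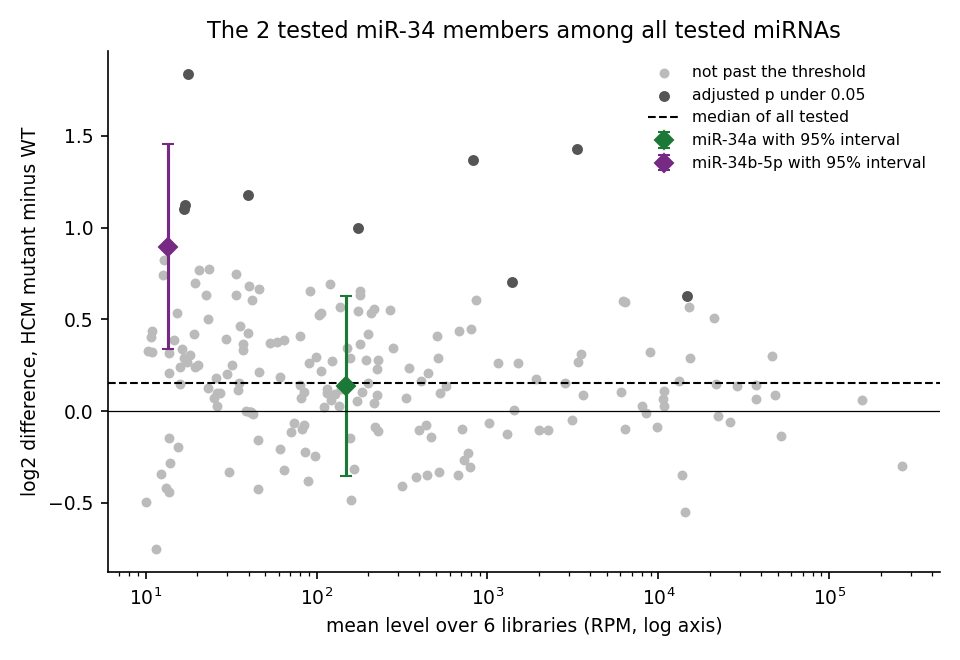
Log2 difference (HCM mutant minus WT, y axis) against mean level over 6 libraries (RPM, log x axis) for the 193 miRNAs tested. Dark points passed at an adjusted p under 0.05, and diamonds with 95% intervals mark miR-34a at 0.14, close to the dashed median of 0.15, and miR-34b-5p at 0.90.

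The other products of the miR-34b/c precursors were too scarce for the filter of 10 RPM mean. miR-34c, the 5p arm of Mir34c, stood at 2.34, 1.69 and 2.01 RPM in the HCM mutants, against 0.548, 1.61 and 1.53 RPM in WT. These are 10, 7 and 5 reads in the HCM mutants and 2, 6 and 8 reads in WT, so that the groups are separated in RPM but not in reads. At a filter of 1 RPM, where 309 miRNAs were tested, miR-34c had a log2 difference of 0.47 and did not pass (limma adjusted p = 0.559). edgeR on the recovered reads gave 0.67 at that filter (adjusted p = 0.633), while miR-34b-5p passed at it with both tools, at 0.90 with limma (adjusted p = 0.0331) and 0.96 with edgeR (adjusted p = 0.0356). At that filter 14 of 309 (4.53%) were higher and 6 of 309 (1.94%) lower with limma, and 12 of 309 (3.88%) higher and 6 of 309 (1.94%) lower with edgeR.

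The minor arms were seen in single reads. miR-34b-3p had 7, 4 and 1 reads in the HCM mutants and 3, 1 and 0 reads in WT. miR-34c* had 2, 2 and 1 reads in the HCM mutants and 0, 1 and 1 reads in WT, below the floor of 3 reads in every library. For both, no difference was detectable at this depth, and with no filter neither passed (limma adjusted p = 0.312 and 0.489, 478 miRNAs tested, of which 7 or 1.46% were higher and 2 or 0.418% lower). Over all 6 libraries the 3p arm made up 16 of 329 reads of Mir34b (4.86%) and 7 of 45 reads of Mir34c (15.6%). In all, 3 of the 5 members had every HCM mutant library above every WT library in RPM, which was so for 51 of 478 detected miRNAs (10.7%) and for 16 of the 285 with a mean under 10 RPM (5.61%). All 3 come from the miR-34b/c precursors, so they are not independent of each other. Of these, miR-34c* was separated by the worth of 1 or 2 reads. miR-34c was separated by 1.69 RPM in HCM mutant replicate 2 against 1.61 RPM in WT replicate 2.

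Summed over the 4 arms, the miR-34b/c precursors gave 25.3, 20.9 and 17.7 RPM in the HCM mutants, against 11.0, 14.2 and 8.04 RPM in WT. As a share of the family's reads this was 14.1%, 11.1% and 11.4% in the HCM mutants and 9.09%, 7.14% and 5.71% in WT. The groups do not overlap, although the Wilson 95% intervals of neighbouring libraries do, at 9.06% to 13.5% for HCM mutant replicate 2 and 6.75% to 12.1% for WT replicate 1. The miR-34b-5p arm alone made up 83.7% of these reads in each group. These sums follow miR-34b-5p and were not tested.

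Members were also compared as ratios within a library. miR-34a had 7.42, 9.45 and 9.24 times the RPM of miR-34b-5p in the HCM mutants, against 11.4, 15.3 and 21 times in WT. The ratios tested were of RPM + 1, so for scarce members they depend on the value added. The log2 ratio of miR-34b-5p to miR-34a was −3.04 ± 0.18 in the HCM mutants and −3.80 ± 0.40 in WT (SD, n = 3 each), a difference of 0.76, and of 0.83 with nothing added. The groups do not overlap, and the two-sided exact permutation test gave p = 0.1, the smallest that 3 against 3 libraries allow (adjusted p = 0.3 over the 3 ratios tested). The unequal difference of miR-34b-5p and miR-34a therefore could not pass by this test, whatever its size, with 3 against 3 libraries. The log2 ratio of miR-34b-5p to its cluster mate miR-34c differed by 0.43, with overlapping groups (exact permutation p = 0.3, adjusted p = 0.3). That difference was 0.12 with nothing added, 0.089 without WT replicate 3 and 0.71 without WT replicate 1, and the plain ratio averaged 8.96 ± 1.59 in the HCM mutants and 9.71 ± 6.96 in WT (SD, n = 3 each), so its direction depends on the scale. That of miR-34c to miR-34a differed by 0.33, also with overlap (exact permutation p = 0.2, adjusted p = 0.3), by 0.71 with nothing added and by −0.028 with a pseudocount of 10.

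Seen through the shared 5p seed, the pool of miRNAs that could pair with the same sites was made up mostly of miR-34a. The 4 detected miRNAs with the seed summed to 183, 189 and 160 RPM in the HCM mutants, against 123, 203 and 142 RPM in WT. The groups overlap. miR-34a made up 86.5% ± 2.15 of the pool's reads in the HCM mutants and 91.2% ± 1.99 in WT, and miR-34b-5p made up 10.04% ± 1.19 in the HCM mutants and 6.07% ± 1.69 in WT (SD, n = 3 each). miR-449a stood at 4.92, 1.69 and 5.64 RPM in the HCM mutants, against 3.02, 4.30 and 1.72 RPM in WT, with overlapping groups, and did not pass at the 1 RPM filter (log2 difference 0.29, limma adjusted p = 0.714). miR-449b and miR-449c had 0 reads in all 6 libraries, where 3 reads are worth at most 1.21 RPM.

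**Figure D3:**
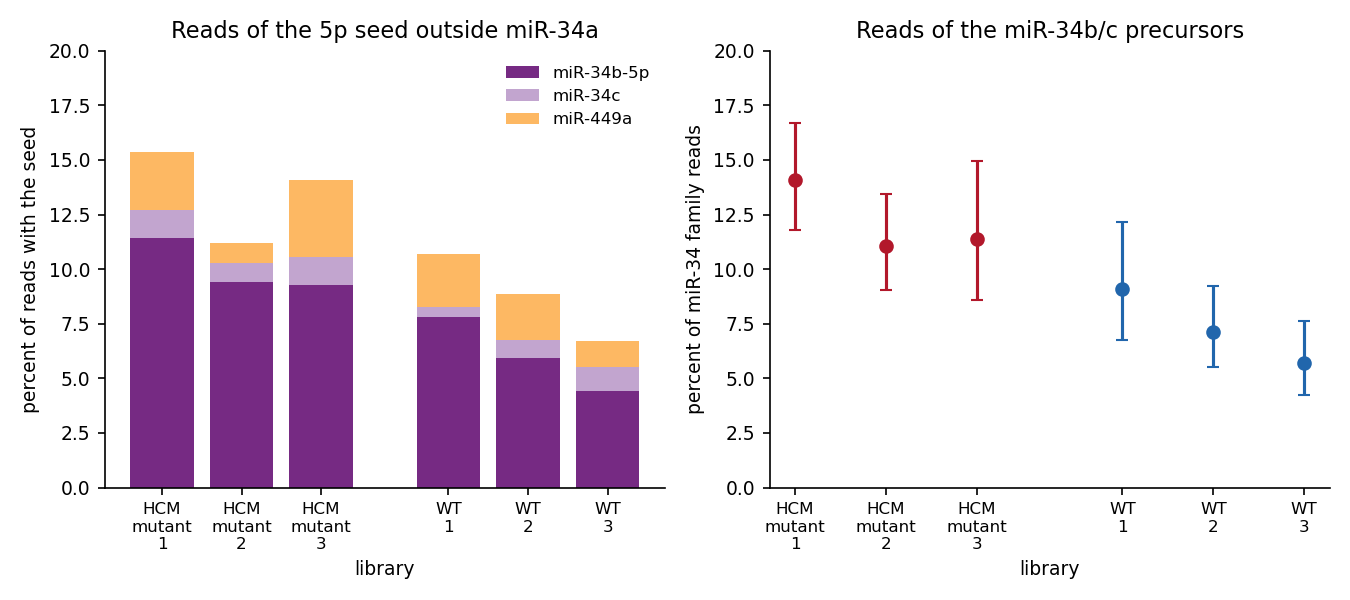
Left, share of all reads with the 5p seed (percent, stacked bars) held by miR-34b-5p, miR-34c and miR-449a in each library, the rest being miR-34a. Right, share of miR-34 family reads (percent) from the miR-34b/c precursors with Wilson 95% intervals, at 11.1% to 14.1% in the HCM mutants (red) and 5.71% to 9.09% in WT (blue).

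Markers of other cell types were set beside the miR-34b-5p result. In bulk ventricle, fewer cells of a type and less RNA per cell cannot be told apart. The epithelial list of 15 rows held 523 to 638 RPM in the HCM mutants and 485 to 495 RPM in WT, nearly all of it miR-203 (570 ± 59.1 RPM in the HCM mutants and 465 ± 10.7 RPM in WT). Of that list, 4 rows were at 0 in every library, among them miR-449b and miR-449c. The other detected epithelial rows were too scarce for the filter, and they went in both directions. miR-200c stood at 4.43 to 5.54 RPM in the HCM mutants and 7.53 to 12.8 RPM in WT. miR-141 averaged 2.57 ± 0.648 RPM in the HCM mutants and 4.00 ± 2.04 RPM in WT. miR-205 was at 0 in the HCM mutants and at 0.191 to 0.548 RPM in WT, below the floor of 3 reads in every library. Higher in the HCM mutants on average were miR-200a (4.93 ± 0.192 RPM against 4.32 ± 2.07 RPM in WT) and miR-200b (1.20 ± 0.729 RPM against 1.09 ± 0.519 RPM). So was miR-449a (4.08 ± 2.11 RPM against 3.01 ± 1.29 RPM in WT), while miR-429 stood at 2.29 ± 0.949 RPM against 2.42 ± 0.892 RPM. With the filter at 1 RPM, 7 epithelial rows were tested and 0 passed in either direction with limma or edgeR. Over all 309 miRNAs tested there, limma called 14 (4.53%) higher and 6 (1.94%) lower, and edgeR 12 (3.88%) higher and 6 (1.94%) lower. The fibroblast list (miR-21, miR-214, miR-199a and their minor arms, 6 rows) held 3951 to 8555 RPM in the HCM mutants and 1617 to 3051 RPM in WT. Of its 5 tested rows 4 were higher, where 10 of 193 miRNAs (5.18%) were. This list, like the others, was chosen with earlier results of these data known, and its 4 called rows had the 4 highest log2 differences of the 193. The count is therefore no independent support, and miR-21 and miR-21* are arms of 1 precursor. Without WT replicate 3 this count was 1, miR-21*, which was then the only 1 of all 193 miRNAs called. All 5 tested rows kept an unadjusted limma p under 0.05 in that setting. The leukocyte list (6 rows) held 2125 to 2402 RPM in the HCM mutants and 1371 to 1785 RPM in WT, and miR-142-3p, its most abundant row, was the 1 of 5 tested rows called higher. That call was lost without trend, with median-of-ratios scaling, and without HCM mutant replicate 3, WT replicate 1 or WT replicate 3. Of the other leukocyte rows, miR-142-5p stood at 42.5 ± 7.89 RPM in the HCM mutants and 24.9 ± 3.96 RPM in WT (log2 difference 0.74). miR-223 stood at 320 ± 72.1 RPM in the HCM mutants and 218 ± 53.8 RPM in WT (0.55). In the other direction, miR-150 stood at 133 ± 46.1 RPM in the HCM mutants and 185 ± 53.6 RPM in WT (−0.48). miR-155 stood at 42.7 ± 4.38 RPM in the HCM mutants and 48.2 ± 10.4 RPM in WT (−0.16). None of these passed with limma at an adjusted p under 0.05. The neuronal list of 4 rows held 23.0 to 27.4 RPM in the HCM mutants and 20.02 to 21.6 RPM in WT, and 1 row was at 0. The part of these cell types in the miR-34b-5p result was not tested. The endothelial list (2 rows; 30476 to 37224 RPM in the HCM mutants and 26942 to 38273 RPM in WT) and the erythroid list (2 rows; 58.0 to 137 RPM in the HCM mutants and 79.3 to 123 RPM in WT) overlapped between groups.

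Other miRNAs linked to p53 gave no call. Of 7 tested arms of the list miR-192, miR-194, miR-215, miR-15a, miR-16, miR-143, miR-145, miR-107 and miR-605, 0 passed in either direction with limma. Over all tested, 10 of 193 (5.18%) were higher and 0 lower, and at that share a list of 7 may well hold no call. Differences above 0 were seen in 4 of the 7, against 137 of 193 for all tested. The list's median was 0.028 against 0.15 for all tested. Counted at an unadjusted p under 0.05, the list gave 0 with limma, 0 with edgeR and 1 with DESeq2, where limma gave 42 of all 193 (21.8%), edgeR 40 (20.7%) and DESeq2 40 (20.7%). Its most abundant members were miR-143, known from smooth muscle (30127 ± 3534 RPM in the HCM mutants, 27552 ± 4892 RPM in WT; log2 difference 0.14 ± 0.17), and miR-16, a repressor of cell cycle genes (8141 ± 1985 RPM in the HCM mutants, 7895 ± 1307 RPM in WT; 0.028 ± 0.20). miR-605 was not analysed here.

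The list linked to ageing and senescence was miR-22, miR-29a, miR-29b, miR-29c, miR-146a, miR-146b, miR-181a, miR-217, miR-17, miR-20a, miR-106b and miR-126. Of its 15 tested arms, 0 passed with limma, where 10 of 193 (5.18%) were higher and 0 lower, so few calls could be looked for in 15. Differences above 0 were seen in 8 of the 15, against 137 of 193 for all tested. The list's median was 0.064 against 0.15 for all tested. Counted at an unadjusted p under 0.05, the list gave 1 of 15 with limma, 1 with edgeR and 3 with DESeq2, against the same shares of all tested (21.8%, 20.7% and 20.7%). miR-22, an abundant cardiac miRNA, stood at 49461 ± 375 RPM in the HCM mutants and 54486 ± 4095 RPM in WT, a log2 difference of −0.14 ± 0.15. miR-29b, a repressor of collagen genes, stood at 38111 ± 1072 RPM in the HCM mutants and 36544 ± 3754 RPM in WT, a log2 difference of 0.065 ± 0.16. miR-146b, of a family induced by inflammatory signalling, had a mean just under the filter. It stood at 15.1 ± 6.33 RPM in the HCM mutants and 3.96 ± 1.52 RPM in WT, and at the filter of 1 RPM it rose, with a log2 difference of 1.65 (limma, adjusted p = 7.54e-06). It was named after its values were seen. miR-29c was called lower with DESeq2 only (−0.54, adjusted p = 0.0280). With limma its log2 difference was −0.35 (adjusted p = 0.225). Every HCM mutant library of miR-29c was below every WT library, as for 5 of 193 miRNAs (2.59%).

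By Pearson's r of log2(RPM + 1) over the 6 libraries, the tested miRNAs most like miR-34a were miR-450a-5p (r = 0.95), miR-221 (r = 0.94) and miR-151-5p (r = 0.93). None of these 3 passed between groups, with log2 differences of −0.0059, 0.29 and 0.15. Most like miR-34b-5p were miR-598 (r = 0.97), miR-204 (r = 0.92) and miR-142-3p (r = 0.90). Of these miR-142-3p alone was higher in the HCM mutant (0.70, limma adjusted p = 0.0333), and miR-598 and miR-204 had differences of 0.37 and 0.54 that did not pass. miR-34a and miR-34b-5p had an r of 0.50 with each other. These are descriptions of 6 points that share library totals and the group difference.

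**Figure D4:**
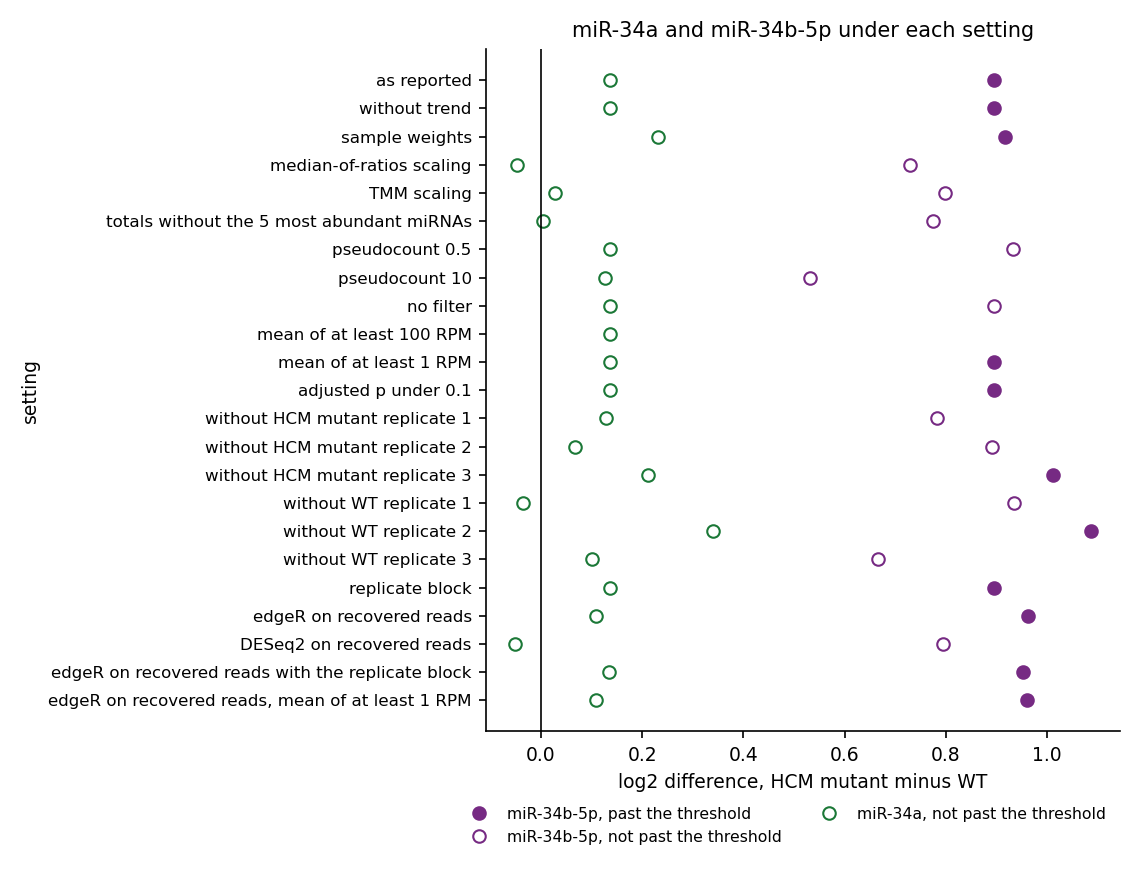
Log2 difference (HCM mutant minus WT, x axis) of miR-34b-5p (purple) and miR-34a (green) under each processing setting (rows), filled where past the threshold of that setting. miR-34b-5p stays between 0.53 and 1.09 and is filled in 10 of the 21 other settings, and miR-34a stays between −0.051 and 0.34 and is filled in none of 22.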

How the data were processed

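RNA came from a kit for miRNA purification and the libraries were multiplexed, per the labels' protocols. The authors deposited normalised values for each mature miRNA. The deposited unit is RPM (reads per 1000000 miRNA reads), as normalised by the authors and worked out here from columns that sum to about 1000000 and from values that are whole multiples of 1 read's worth (100% within 0.02 reads). No source used here names the aligner, counter, miRNA database or build. Groups and replicate numbers come from the titles, which call the samples biological replicates; p-values measure the spread between them. All library pairs differed by more than sampling noise.

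log2(RPM + 1) was tested with limma 3.58.1 (trend, two-sided, no covariates, R 4.3.3) for the 193 miRNAs averaging 10 RPM or more, with Benjamini-Hochberg adjustment over all of them and a threshold of 0.05. edgeR 4.0.16 (quasi-likelihood, library totals) and DESeq2 1.42.0 (own size factors, without independent filtering) were run on the recovered reads as alternatives. Ratios were compared by exact permutation over the 20 assignments. The steps were tested on simulated data. Named miRNAs were all family members and rows of the same seed, the 3 tested miRNAs most like each tested member, and the listed miRNAs that passed or were the 2 most abundant. The members and lists were chosen with earlier results of these data known. Mature sequences were placed by own match to RefSeq hairpins (GRCm38.p6), which held all 3 family precursors; a RefSeq mature entry matched 4 of the 5 members. GENCODE M21 gave overlapping genes. Python 3.11.15, pandas 2.3.3, scipy 1.17.1, Biopython 1.88 and matplotlib 3.10.9 were used.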

Additional observations from a re-analysis of the deposited data

How the results depend on the processing

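The miR-34b-5p difference stayed above 0 in all 21 other settings that tested it, and 10 of them kept the call. The call was lost, so that 0 members were called, with median-of-ratios scaling (log2 difference 0.73), TMM scaling (0.80), totals that leave out the top 5 miRNAs (0.77), a pseudocount of 0.5 (0.93) or 10 (0.53), no filter (0.90, adjusted over 478) and DESeq2 (0.79). A mean of at least 100 RPM left it untested, with 0 called. Scaling lowers every difference with the median; for the rest the cause was not tested. Dropping 1 library gave 0 to 1 called, with 0.67 to 1.09 for miR-34b-5p and −0.035 to 0.34 for miR-34a. miR-34a was −0.046 with median-of-ratios scaling and −0.051 with DESeq2. Lower calls stayed at 0. The ratio of miR-34c to miR-34a turned to −0.028 with a pseudocount of 10. Of the ageing list, 1 was higher with no filter, at 1 RPM mean and with edgeR at 1 RPM mean, and 1 was lower with DESeq2. The p53 list gave 0 throughout. edgeR at 1 RPM mean and ratios with no pseudocount were added after seeing the data.

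The labels do not say whether replicate numbers pair the animals. Deviations from the group mean had correlations of 0.51, −0.074 and 0.18 between libraries of 1 number, and not every library correlated best with its own number. With the replicate block miR-34b-5p kept 0.90 (limma adjusted p = 0.0204) and miR-34a 0.14, and limma called 17 miRNAs in place of 10. A paired exact test of the ratios allows no p below 0.25. Depth limits the 3 scarcer members, at 0 to 10 reads a library.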
